A study of Mus musculus with 48 samples.

Results

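Krt8, Krt19, Krt20 and Cldn4 encode 3 keratins of simple, single-layered epithelia and 1 protein of the tight junction. They were chosen by name with earlier results of these data known, which their ranks and p-values do not allow for. They make up 4 of the 7859 genes that could be named in the expression table. Their transcripts were followed in the kidneys of 48 BALB/c females, in 8 groups of 6 mice killed on day 8 after 7 daily injections. Vancomycin, a glycopeptide antibiotic that can injure the renal tubule, was given at 50, 200 or 400 mg/kg intravenously (iv) or intraperitoneally (ip). Each route had a group given 0.9% saline in a similar volume. No group carried a genetic change, and mice of 1 group shared the dose and the route. Each mouse was measured on its own single-colour Affymetrix array, so the number of arrays sets the precision. The labels number the mice separately. The p-values of the main test set a difference against 1 spread between mice, shared by all 8 groups.

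The 4 gene names rest on a reconstruction of the row order, because values and probe set identifiers of the table are out of step. Names were given within 3 stretches of rows in which values and identifiers differ by a constant offset, and these cover 22.6% of the 45101 rows. Over the 500 rows on either side of each member, the levels of rows given to the same gene correlated at 0.56 around Krt8 (113 pairs), 0.43 around Krt19 (83 pairs), 0.43 around Krt20 (251 pairs) and 0.53 around Cldn4 (74 pairs). Moving the offset by 1 row in either direction lowered this to between 0.06 and 0.24. These are correlations across genes, which are not independent replicates. Defining genes of the kidney stood at high levels under the same offsets. Umod, the uromodulin of the thick ascending limb, lay 32 rows from Krt20 and averaged 13.64 (log2 intensity) over all arrays. Slc34a1, the proximal phosphate transporter, averaged 12.65, and Aqp2, the water channel of the collecting duct, averaged 10.92. With identifiers left as listed, the highest row was lower for Slc34a1 (2.42) and Aqp2 (6.33). It was also lower for Eef1a1 (5.86, against 14.59 under its offset) and Clu (4.95, against 11.63). Umod was lower as listed too but still high, and Xist stood at 10.65 as listed against 10.60 under its offset. A high level by itself therefore does not tell the offsets from the listed order. These marker genes were picked after their values were seen. Each result on a named gene is therefore conditional on these offsets.

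Keratins form intermediate filaments as pairs of a type I and a type II chain. Krt8 is the type II keratin of simple epithelia, and Krt19 and Krt20 are type I chains that can pair with it. In the healthy kidney Krt8 and Krt19 are known mainly from the distal tubule and collecting duct, whereas Krt20 is best known from the intestine and the surface cells of the urothelium. Claudins span the membrane at the tight junction and set which ions pass between cells. Cldn4 is known in the kidney from the thin ascending limb and the collecting duct, where it limits the passage of sodium and takes part in that of chloride. Krt18, the usual partner of Krt8, was not analysed here.

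RefSeq promoter windows of GRCm38.p6 matched 3 of the 4 genes and are shown because the 4 transcripts are described side by side. Each window runs from 250 bases before the annotated start of the gene to 50 bases after it, 5′ to 3′ on the strand of the gene, which is the minus strand for all 3. Krt8 lies at chr15:102004293-102004592, Krt20 at chr11:99438104-99438403 and Cldn4 at chr5:134946885-134947184. Capitals mark matches on either strand to the TATA box (TATAAA), the AP-1 site (TGANTCA), the TEAD site (GGAATG) or the GC box (GGGCGG).
Krt8: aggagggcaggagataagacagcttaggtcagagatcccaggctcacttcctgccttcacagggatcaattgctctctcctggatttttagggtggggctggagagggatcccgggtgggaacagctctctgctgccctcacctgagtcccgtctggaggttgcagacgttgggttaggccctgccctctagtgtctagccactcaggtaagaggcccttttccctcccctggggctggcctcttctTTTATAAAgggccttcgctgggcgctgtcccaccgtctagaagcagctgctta
Krt20: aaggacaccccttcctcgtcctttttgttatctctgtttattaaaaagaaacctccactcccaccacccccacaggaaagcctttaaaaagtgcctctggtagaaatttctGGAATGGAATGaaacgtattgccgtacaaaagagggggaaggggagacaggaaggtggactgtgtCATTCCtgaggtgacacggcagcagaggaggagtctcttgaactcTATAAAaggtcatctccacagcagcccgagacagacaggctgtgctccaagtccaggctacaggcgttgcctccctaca
Cldn4: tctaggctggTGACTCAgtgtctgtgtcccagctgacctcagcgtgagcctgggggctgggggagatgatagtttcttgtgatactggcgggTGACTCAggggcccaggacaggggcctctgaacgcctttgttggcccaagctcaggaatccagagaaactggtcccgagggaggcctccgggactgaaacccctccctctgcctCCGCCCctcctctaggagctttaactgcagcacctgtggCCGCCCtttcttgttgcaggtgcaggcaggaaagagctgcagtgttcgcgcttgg
The capitals in Krt20 mark 1 TATA box, beginning 29 bases before the start, and 3 TEAD matches, the first 2 of which overlap by 1 base. The Krt8 window held 2 TATA box matches that overlap each other on opposite strands, and no match to the others. These 2 matches begin at -3 and -1 from the annotated start, and so span it. Cldn4 held 2 AP-1 matches and 2 GC boxes and neither of the others. Of 32851 mouse promoter windows of the same length, 13.6% held a TATA box, 7.81% an AP-1 match, 14.7% a TEAD match and 35.7% a GC box. No motif searched was matched in all 3 windows. A match is a run of letters, and binding was not measured.

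All 4 transcripts were higher at 400 mg/kg than in saline by both routes. Krt20 rose from a level near background by 6.19 (iv) and 6.63 (ip) on the log2 scale, Krt19 and Cldn4 rose by 10.4-fold to 38.3-fold, and Krt8, already abundant in saline kidneys, rose by 3.87-fold (iv) and 4.63-fold (ip). At iv 200 mg/kg Krt8 and Krt20 were higher than in saline and Krt19 and Cldn4 did not pass. At 50 mg/kg by either route, and at ip 200 mg/kg, none of the 4 passed. A gene passed where its limma adjusted p (Benjamini-Hochberg over the 5745 genes tested) was under 0.05. The same test called 30.7% of all tested genes higher at iv 400 and 36.3% at ip 400. It called 49.7% and 61.3% in either direction, so a call by itself does not set these genes apart.

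**Figure D1:**
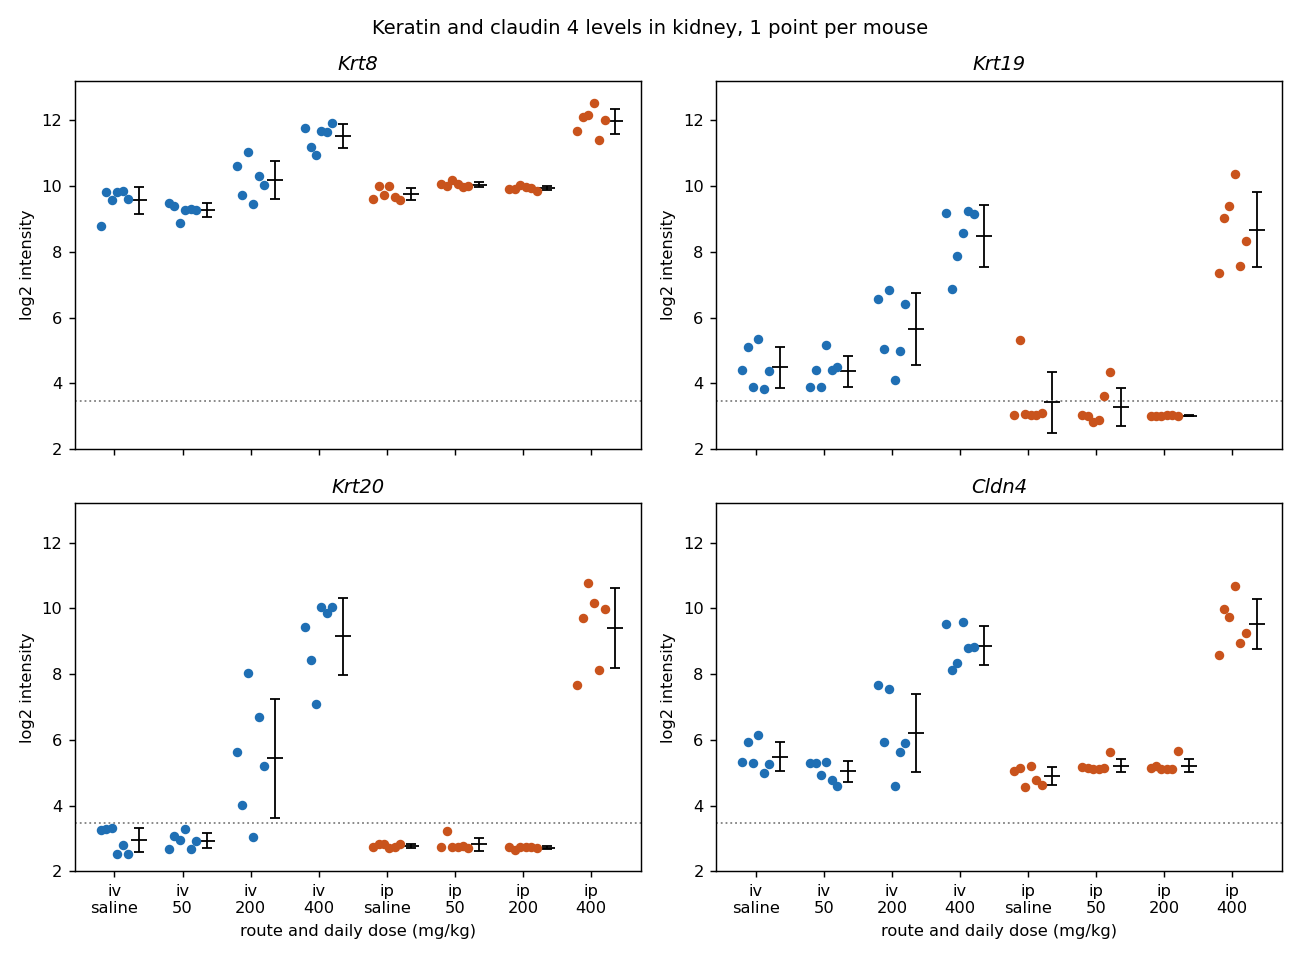
Log2 intensity (y axis) of Krt8, Krt19, Krt20 and Cldn4 in each of 48 mice, by route and daily dose (x axis), with points for mice, bars for group means ± SD (n = 6) and a line at the table median of 3.47. All 6 mice at 400 mg/kg lie above all 6 saline mice of their route in each panel, and at iv 200 the mice of 1 group spread from 3.03 to 8.05 for Krt20.

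Krt8, the type II chain, was expressed well above the table's median of 3.47 (log2 intensity) in every array. In iv saline kidneys its log2 intensity had a lowest value of 8.78, a median of 9.70 and a highest value of 9.84. At iv 50 these were 8.87, 9.28 and 9.50, at iv 200 they were 9.45, 10.17 and 11.03, and at iv 400 they were 10.95, 11.65 and 11.93. The iv 400 values lay wholly above saline, while 4 of 6 mice at iv 200 exceeded the highest saline mouse. By the ip route the saline kidneys ran from 9.59 through a median of 9.69 to 10.01, and ip 400 kidneys from 11.39 through 12.04 to 12.52. The ip 50 kidneys, between 9.96 and 10.18, and the ip 200 kidneys, between 9.84 and 10.05, overlapped saline. The log2 difference from saline was 1.95 ± 0.19 (SE) at iv 400 (limma adjusted p = 7.3e-12) and 2.21 ± 0.19 at ip 400 (limma adjusted p = 6.6e-14), with 6 of 6 mice above every saline mouse each time. Over all tested genes, 15.1% had all iv 400 mice above all iv saline mice and 24.1% all ip 400 mice above all ip saline mice.

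The Krt8 probe set carries the array maker's suffix for probes that can cross-hybridise, and only 1 of the 3 Krt8 probe sets on the array lay in a named stretch. The row just before the second stretch would be given to another Krt8 probe set if the same offset held there. That row lies outside the named stretches, so its name is assumed, and it was looked at after the data were seen. Its values correlated with those of the named row at 0.993 over the 48 arrays, which share the dose groups. It averaged 9.58 ± 0.26 in iv saline, 11.59 ± 0.37 at iv 400, 9.71 ± 0.15 in ip saline and 11.92 ± 0.38 at ip 400 (log2 intensity, SD, n = 6).

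Krt19, a type I chain that lacks the tail found in other keratins, stood low in saline kidneys and differed there between the routes. Its log2 intensity in iv saline ran from 3.83 through a median of 4.39 to 5.35, and at iv 400 from 6.88 through 8.86 to 9.25. In ip saline 5 of 6 mice lay between 3.02 and 3.09, under the table's median, and mouse 62 stood at 5.31. At ip 400 the values ran from 7.37 through 8.68 to 10.37, above every saline mouse. The ip 200 mice held within 2.99 to 3.04, and at ip 50 only mice 71 (3.61) and 72 (4.34) exceeded the table's median. Krt19 rose by 3.99 ± 0.44 (log2, SE) at iv 400 (limma adjusted p = 3.5e-10, 6 of 6 mice above saline) and by 5.26 ± 0.44 at ip 400 (limma adjusted p = 6.7e-14, 6 of 6). With values under the table's median set to it, the ip 400 difference was 4.91, since part of the ip saline level lies in the range that is not told from background.

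Krt20, the keratin of intestine and urothelial surface cells, was not above the table's median in any saline or 50 mg/kg kidney, nor in any ip 200 kidney. Its log2 intensity in iv saline ran from 2.54 through a median of 3.04 to 3.31, and in ip saline from 2.70 through 2.78 to 2.83. At iv 400 it ran from 7.08 through 9.65 to 10.04, and at ip 400 from 7.67 through 9.83 to 10.78. The gap between the highest saline and the lowest 400 mg/kg mouse was therefore wider than the range within either group. The log2 difference was 6.19 ± 0.49 at iv 400 (limma adjusted p = 6e-14, 6 of 6 mice above saline) and 6.63 ± 0.49 at ip 400 (limma adjusted p = 1.4e-15, 6 of 6). As fitted, these ranked 2nd (iv) and 4th (ip) among the rises of 5745 tested genes. With low values set to the table's median the differences were 5.68 and 5.93, so the fold sizes of 73.1 and 98.8 and the ranks are approximate. Krt20 passed the filter on low values only through arrays of iv 200, iv 400 and ip 400, the groups in which it was high.

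Cldn4 was above the table's median in all 48 kidneys. Its log2 intensity in iv saline ran from 5.00 through a median of 5.30 to 6.14, at iv 50 from 4.60 through 5.11 to 5.32, and at iv 400 from 8.12 through 8.81 to 9.60. In ip saline it ran from 4.58 through 4.92 to 5.20, and at ip 400 from 8.59 through 9.50 to 10.67. The 400 mg/kg kidneys were separate from every lower dose. At ip 50 and ip 200 the lowest 5 mice of each group lay within 5.11 to 5.19, and 1 mouse of each stood at 5.62 and 5.65. The log2 difference from saline was 3.38 ± 0.33 at iv 400 (limma adjusted p = 1e-11, 6 of 6 mice above saline) and 4.63 ± 0.33 at ip 400 (limma adjusted p = 3.7e-16, 6 of 6). These rises ranked 50th and 31st among the tested genes, those of Krt19 28th and 20th, and those of Krt8 209th and 293rd.

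**Figure D2:**
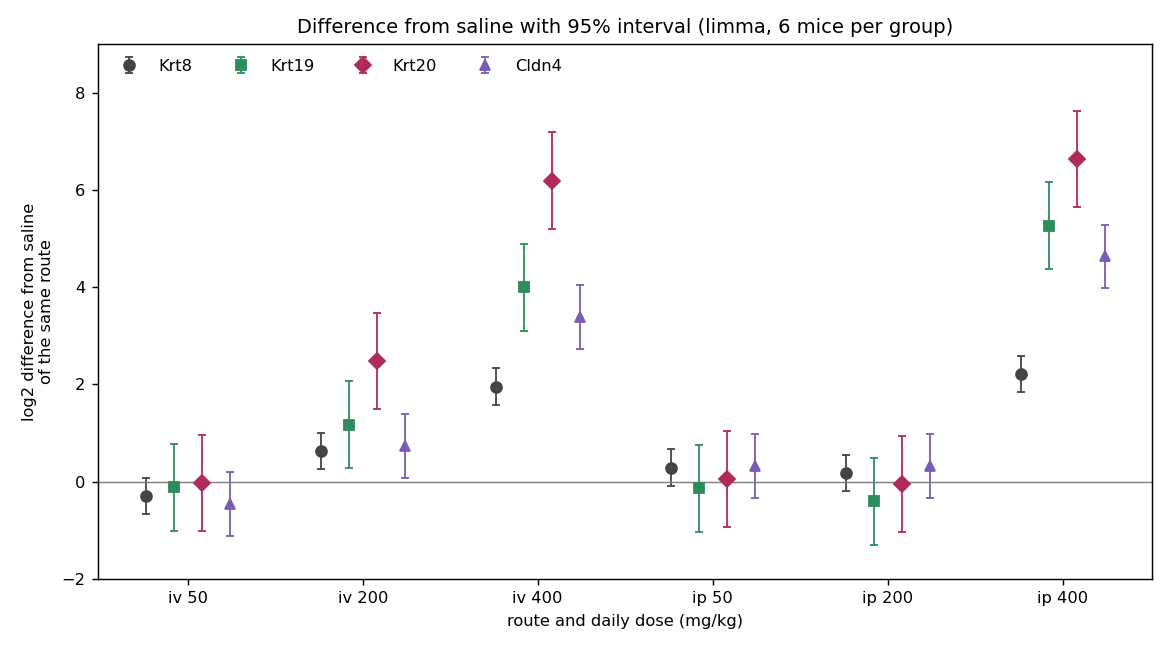
Log2 difference from the saline group of the same route (y axis) by route and daily dose (x axis), with a point per gene and bars for the 95% interval of the fit. The intervals at 400 mg/kg lie far from 0 by both routes, from 1.95 for Krt8 (iv) to 6.63 for Krt20 (ip), while those at 50 mg/kg and ip 200 include 0.

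The iv 200 group was the one in which the 4 genes parted. The limma test called 6.07% of the tested genes higher there, and 2 of the 4 genes. Krt20 ranged from 3.03 through a median of 5.43 to 8.05 (log2 intensity), with 5 of 6 mice above the highest saline mouse, and differed by 2.48 ± 0.49 (SE; limma adjusted p = 0.00067). Krt8 differed by 0.63 ± 0.19 (limma adjusted p = 0.029, 4 of 6 mice above saline). Krt19 ran from 4.11 through 5.72 to 6.84, with a difference of 1.17 ± 0.44 that did not pass (limma adjusted p = 0.1, 3 of 6). Cldn4 ran from 4.60 through 5.93 to 7.68, with a difference of 0.73 ± 0.33 that did not pass either (limma adjusted p = 0.18, 2 of 6). Their unadjusted 95% intervals were 0.28 to 2.06 and 0.07 to 1.38, so a difference of a size like that of Krt8 lies within both.

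The Krt8 call at iv 200 depended on single mice, and both iv 200 calls on the fit. Krt20 kept its call in each of 12 fits that left out 1 mouse (1.96 to 2.96, limma adjusted p up to 0.0051). With only the iv 200 and iv saline groups fitted, the limma adjusted p was 0.22 for Krt8 and 0.073 for Krt20. The Krt8 call was also lost without mouse 1 of iv saline (0.47, limma adjusted p = 0.12) or without mouse 25, 27 or 29 (0.46 to 0.60, limma adjusted p up to 0.13). Without mouse 28 of iv 200, Krt19 (1.48, limma adjusted p = 0.024) and Cldn4 (1.05, limma adjusted p = 0.019) passed. The array of mouse 27 had the highest median of its group, 3.55 against at most 3.38 in the other 5, and 1 array of each iv group stood apart in this way. Without these 4 arrays, a set chosen after the data were seen, Krt20 differed by 2.02 (limma adjusted p = 0.0091) and Krt8 by 0.30 (limma adjusted p = 0.33). The part of the array medians in these results was not tested further.

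Neighbouring doses ordered the levels within each route. Between iv 50 and iv 200, where 6.32% of tested genes were called higher, Krt8 (0.93 ± 0.19, limma adjusted p = 0.00071), Krt20 (2.51 ± 0.49, limma adjusted p = 5e-04) and Cldn4 (1.18 ± 0.33, limma adjusted p = 0.017) rose, with 5 of 6 iv 200 mice above every iv 50 mouse for each. The Cldn4 call was lost without mouse 25 (0.89, limma adjusted p = 0.11) or mouse 27 (0.92, limma adjusted p = 0.092), and all 3 calls with only these 2 groups fitted (limma adjusted p of 0.062, 0.069 and 0.2). Krt19 differed by 1.29 ± 0.44 and did not pass (limma adjusted p = 0.069). From iv 200 to iv 400, where 17.8% of genes were called higher, the 4 genes rose by 1.33, 2.82, 3.71 and 2.65 on the log2 scale (Krt8, Krt19, Krt20, Cldn4; highest limma adjusted p = 3.2e-06, 5 or 6 of 6 mice above). From ip 200 to ip 400, where 35.2% were called higher, they rose by 2.03, 5.67, 6.68 and 4.31. The highest limma adjusted p was 7.3e-13, with 6 of 6 mice above for each gene. Over all tested genes, 3.22% had all iv 400 mice above all iv 200 mice. By the ip route, 23.5% had all ip 400 mice above all ip 200 mice. Between ip 50 and ip 200 the 4 differences lay between -0.27 and 0.01 (limma adjusted p = 1), and the limma test called 0 of all tested genes there (46 at an unadjusted p under 0.05, and 0 with array weights). These comparisons share groups with those against saline. The order by the ip route was thus 400 above the other 3 groups, among which no difference passed the limma test. For Krt8, whose ip 50 and ip 200 values were tightly grouped, exact permutation tests gave two-sided p = 0.011 for ip 50 against ip saline (5 of 6 mice above every saline mouse) and p = 0.022 for ip 200 against ip 50 (log2 difference -0.11), both unadjusted. By the iv route 400 was highest for all 4 genes. For Krt8 and Krt20 iv 200 came next, above 50 and saline together, a place that rests on the calls above. Cldn4 at iv 200 passed against iv 50 and not against saline, and Krt19 against neither, so their place at iv 200 was not settled.

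At iv 50 the test called 0.54% of genes in either direction, and the 4 log2 differences from saline lay between -0.46 and -0.03. At ip 50 and at ip 200 it called 0.087%, and the differences lay between -0.14 and 0.32 and between -0.41 and 0.32. None of these 12 differences passed (limma adjusted p = 1 for each). For Krt8 the 95% intervals ran from -0.68 to 0.07 at iv 50, from -0.09 to 0.66 at ip 50 and from -0.20 to 0.55 at ip 200. For Krt20 the intervals spanned about 1 log2 unit on either side of 0, from -0.94 to 1.04 at ip 50. Their width comes from 1 spread shared by all 8 groups, and the Krt20 SD was 1.81 at iv 200 but 0.20 at ip 50. With only ip 50 and ip saline fitted, the SE at ip 50 was 0.078 in place of 0.49. All Krt20 values in the saline, 50 mg/kg and ip 200 groups lay under the table's median.

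Whether the routes differed in effect was tested as an interaction, the ip difference from saline minus the iv one. At 400 mg/kg, where 4.23% of genes were called in either direction, it was 0.26 ± 0.26 (SE) for Krt8 (limma adjusted p = 0.64), 1.27 ± 0.63 for Krt19 (0.25), 0.44 ± 0.69 for Krt20 (0.8) and 1.25 ± 0.46 for Cldn4 (0.11). None passed. The unadjusted 95% intervals ran from 0.00 to 2.53 for Krt19 and from 0.33 to 2.18 for Cldn4. At 200 mg/kg, where 0.975% were called, the interaction was -2.53 ± 0.69 for Krt20 (limma adjusted p = 0.058) and between -1.58 and -0.40 for the other 3 (limma adjusted p of at least 0.26). For Krt20 at 200 mg/kg, 5 of 6 mice exceeded the highest saline mouse by the iv route and 0 of 6 by the ip route. The Krt20 interaction passed with array weights (-2.55, limma adjusted p = 0.00013; Krt19 then too, -1.54, limma adjusted p = 0.044), and without mouse 26 (-2.82, limma adjusted p = 0.018) or mouse 28 (-3.01, limma adjusted p = 0.0029). The 2 routes cannot be told apart from any difference in how their arrays were run.

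That limit shows in the saline kidneys. Over all tested genes the ip saline arrays exceeded the iv saline arrays by a median of 0.41 (log2), and 57.7% of genes were called in either direction. Against that shift, Krt19 was lower in ip saline by 1.07 (log2 difference -1.07 ± 0.44, limma adjusted p = 0.037, with 5 of 6 ip mice below every iv mouse). In the same fit Cldn4 (-0.60), Krt20 (-0.18) and Krt8 (0.19) did not pass. The Krt19 call was lost with low values set to the table's median (-0.72, limma adjusted p = 0.15), in an exact permutation test (two-sided p = 0.067, unadjusted) and in 8 of 12 fits that left out 1 mouse. Cldn4 passed under quantile normalization (-1.05, limma adjusted p = 0.016), with array weights (-0.70, limma adjusted p = 0.0083), with only the 2 saline groups fitted (limma adjusted p = 0.018) and in an exact permutation test (two-sided p = 0.015, unadjusted). Under quantile normalization the sign of Krt8 turned (-0.30).

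In iv 200, iv 400 and ip 400 the same mice held the lowest places for all 4 genes. Among the 6 mice of iv 200, mouse 28 was the lowest for all 4 genes (Krt8 9.45, Krt19 4.11, Krt20 3.03, Cldn4 4.60, log2 intensity). Mouse 27 was highest for all 3 keratins (11.03, 6.84 and 8.05) and mouse 25 highest for Cldn4 (7.68, against 7.55 in mouse 27). At iv 400 mice 44 and 45 held the lowest 2 places for all 4 genes, and at ip 400 mice 103 and 107 did. The array of mouse 44 had the highest median of iv 400, 3.52 against 3.43 for the next. Mouse 106 was highest at ip 400 for Krt8 (12.52), Krt19 (10.37) and Cldn4 (10.67), and mouse 105 for Krt20 (10.78).

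**Figure D3:**
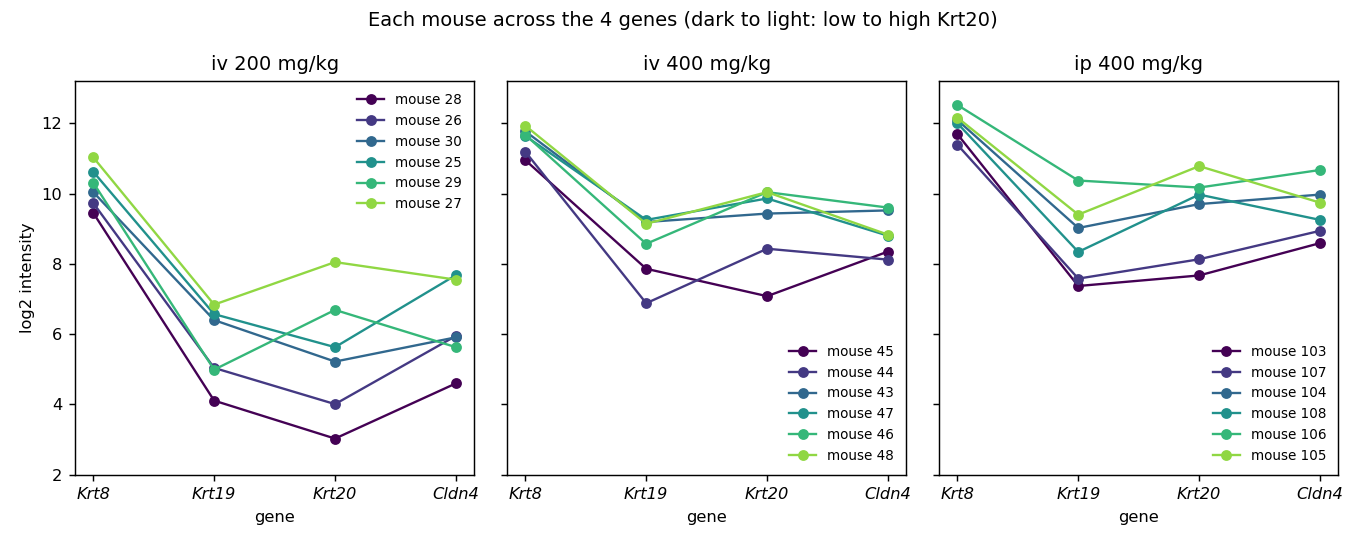
Log2 intensity (y axis) of the 4 genes (x axis) in each mouse of iv 200, iv 400 and ip 400, with a line joining the values of 1 mouse. Lines serve to follow a mouse and not to set 1 gene's level against another's, and mouse 28 lies lowest for every gene at iv 200.

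Correlations between pairs of these genes were computed over the 6 mice within iv 200, iv 400, ip 200 and ip 400, 24 relations in all, with exact permutation tests over the 720 pairings. None passed after Benjamini-Hochberg adjustment, for which the lowest value was 0.058. The highest was between Krt19 and Cldn4 at ip 400, with Pearson's r of 0.98 (exact permutation p = 0.0042, adjusted p = 0.058), Spearman's rho of 0.94 (exact permutation p = 0.017, adjusted p = 0.1), and r of 0.92 without the 2 mice farthest from the median of Krt19. At ip 400 the 6 pairs had r of 0.76 to 0.98, at iv 200 of 0.69 to 0.93 and at iv 400 of 0.67 to 0.94. At ip 200, where all 4 genes varied little, r ran from -0.74 (Krt8 with Cldn4; rho of -0.94, exact permutation p = 0.017, adjusted p = 0.1) to 0.41, and Cldn4 was negative with each keratin. All ip 200 values of Krt19 (2.99 to 3.04) and Krt20 (2.65 to 2.75) lay under the table's median. Relations with these 2 genes there join values not told from background. For Cldn4 mouse 90 stood apart at 5.65. Mouse 87 was highest for Krt8 and lowest for Cldn4 at ip 200, and mouse 90 the reverse. Without the 2 farthest mice r at iv 400 lay between -0.63 and 0.27, so the relation there rests on those mice. Without them Krt20 and Cldn4 had r of 0.00 at both iv 200 and ip 400. Mouse 44, among the lowest 2 of iv 400 for each gene, had that group's array of highest median. The part of that array in these relations was not tested.

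A list of 9 named tubular injury genes was summed in each mouse. The list held Havcr1 (KIM-1), Clu, Cd44, Sox9, Cp, Lgals3, S100a6, S100a10 and Tmsb10, and all 9 rose at 400 mg/kg by both routes, with a median log2 difference of 3.55 (iv) and 3.56 (ip) against 0.09 and 0.11 over all tested genes. Over all tested genes, 30.7% were called higher at iv 400 and 36.3% at ip 400. The summed linear intensity of the 9 genes was 5902 to 8193 in iv saline mice. At iv 200 it was 7759 in mouse 28, 12967 in mouse 26, 33252 in mouse 30, 40101 in mouse 29, 42412 in mouse 25 and 47241 in mouse 27. The mouse with the lowest keratin and Cldn4 levels was thus the one whose injury sum lay within the saline range. At iv 200, 8 of the 9 passed as higher, beside 6.07% of all tested genes. The sums were 34875 to 74382 at iv 400, 7544 to 8691 in ip saline and 56586 to 72693 at ip 400. At these higher doses the order of mice differed in part. At iv 400 mouse 44, in the lowest 2 places for all 4 genes, had the second highest sum (67066), while mouse 45 had the lowest (34875). At ip 400 mouse 108 had the highest sum (72693) and stood in the middle for the 4 genes.

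Most other named keratins gave little signal in kidney. Of 24 other named keratins, 19 were under the table's median in all 48 arrays, and 3 entered the test. Krt7, a type II keratin of ducts and urothelium, was abundant in saline kidneys, averaging 9.13 (iv) and 9.21 (ip) on the log2 scale. It rose by 1.29 at both iv 400 and ip 400, with limma adjusted p under the threshold at each. Over all tested genes 30.7% (iv 400) and 36.3% (ip 400) were called higher, so 1 of 3 is near that background. Krt5 of stratified epithelia (0.19 and -0.23) and Krt23 (-0.39 and -0.04) did not pass. At iv 200 none of the 3 passed, beside 6.07% of all tested genes called higher, and Krt7 differed by 0.24.

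Of 7 other tested claudins, 2 rose by either route, beside 30.7% (iv 400) and 36.3% (ip 400) of all tested genes, a share near that background. Cldn3, a barrier-forming claudin, rose by 1.93 (iv 400) and 2.98 (ip 400), and Cldn15 by 0.39 and 0.49. Cldn10, a claudin of ion-conducting junctions in the proximal tubule and thick limb, fell by 0.72 and by 1.38 on the log2 scale. Cldn12 and Cldn2, the latter a water and cation pore of the proximal tubule, fell at ip 400 (-0.39 and -0.34) and did not pass at iv 400 (-0.36 and 0.015). Cldn5 and Cldn19 passed at neither. The median over the 7 was 0.015 at iv 400 and -0.16 at ip 400.

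Of 15 other tested tight junction genes, 5 rose and none fell at iv 400, and 7 rose and 3 fell at ip 400, beside 30.7% and 36.3% of all tested genes called higher, and 19% and 25.1% called lower. The share that rose at iv 400 was near the background. Cgn, the junctional plaque protein cingulin, rose by 1.17 (iv) and 1.62 (ip), Marveld2 (tricellulin) by 0.50 and 0.92, and the scaffold Tjp1 (ZO-1) by 0.72 and 0.86. At ip 400 Cgnl1 (paracingulin) fell by 1.28, Jam3 by 1.06 and Crb3 by 0.28, and none of these passed at iv 400. The list's median, 0.09 (iv) and 0.06 (ip), was near that of all tested genes.

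Of 11 tested desmosome and adherens junction genes, 5 rose at iv 400 and 7 at ip 400 (all tested genes, 30.7% and 36.3% higher), and none fell. Nectin2, an adhesion molecule of adherens junctions, rose by 1.35 and 2.39. Cdh3 (P-cadherin) rose by 0.86 and 1.65, and Dsp, desmoplakin, which ties keratin filaments to the desmosome, by 0.69 and 1.51. Epcam rose at ip 400 (1.15) and did not pass at iv 400 (0.47). The median was 0.28 at iv 400 and 0.94 at ip 400.

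Of 5 tested genes for other intermediate filaments and linkers, 3 rose at iv 400 and 4 at ip 400, where 30.7% and 36.3% of all tested genes did. Lmna, the A-type lamin of the nuclear envelope, rose by 1.21 and 1.26, the cytolinker Plec by 0.74 and 0.69, and Des by 0.46 and 0.62. Lmnb1 rose at ip 400 (1.35), and Nes passed at neither. Among 8 tested epithelial transcription factors 4 rose and 1 fell at iv 400, and 6 rose and 1 fell at ip 400, against the same shares over all genes. Klf6 rose by 1.75 and 3.59, Elf3 by 1.74 and 2.65, and Klf4 by 0.98 and 2.66. Hnf4a, a regulator of proximal tubule genes, fell by 1.03 and 1.52. Klf4 (interaction 1.69 ± 0.32, limma adjusted p = 7e-04) and Klf6 (1.84 ± 0.52, limma adjusted p = 0.031) rose more by the ip route. This was not shown for any of the 4 genes, and 4.23% of all tested genes were called in that test. Klf4 averaged 6.10 in ip saline against 6.79 in iv saline, and Klf6 3.49 against 4.52. At 400 mg/kg Klf4 averaged 8.76 (ip) and 7.76 (iv), and Klf6 7.09 and 6.27. Route cannot be told apart here from how the arrays were run. At iv 200 none of these 8 factors passed.

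**Figure D4:**
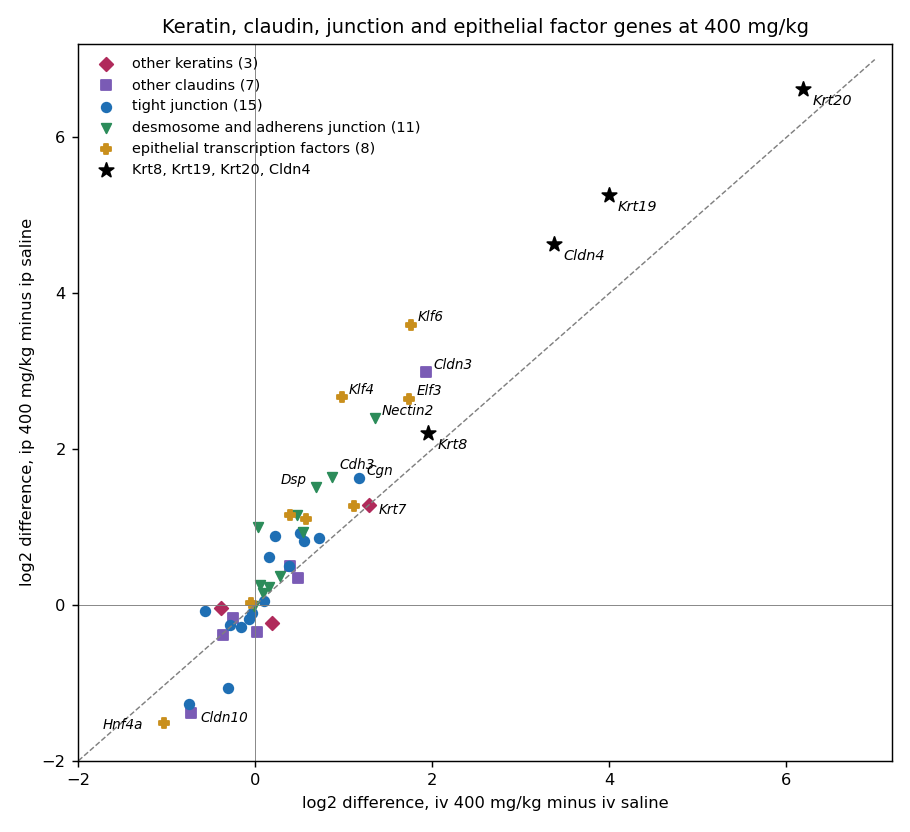
Log2 difference from saline at iv 400 (x axis) and at ip 400 (y axis) for the 4 genes (stars) and for the tested genes of 5 lists, each point 1 gene and each colour 1 list, with a dashed line of equal differences. Krt20 lies farthest from 0 at 6.19 and 6.63, and Hnf4a and Cldn10 lie below 0 by both routes.

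Over all tested genes, 19% were called lower at iv 400 and 25.1% at ip 400, and most tested genes of the tubule segments were. All 6 tested proximal tubule genes fell at both iv 400 and ip 400 (median -1.97 and -2.88), and 7 of 8 loop and distal genes fell by both routes (median -1.17 and -1.31). Of 9 tested collecting duct genes, from the segment in which Krt8, Krt19 and Cldn4 are best known, 8 fell at iv 400 and 6 at ip 400, and none rose. Their summed intensity was 3600 to 7330 in iv saline and 2015 to 4798 at iv 400, 5409 to 7150 in ip saline and 3526 to 6439 at ip 400. Aqp2 did not pass by either route (-0.46 and 0.21). In whole kidney, a change in the share of cells of a type and a change in the RNA per cell cannot be told apart.

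Markers of other epithelia that carry Krt20 or Krt7 were examined beside these results. Of 8 named urothelial genes, Upk2, Upk3b and Krt14 were under the table's median in all arrays. Upk1a did not pass by either route (0.00 and -0.14). Of the 3 tested only Krt7 rose, beside 30.7% (iv 400) and 36.3% (ip 400) of all tested genes. The summed intensity of the 7 others without Krt7 was 45 to 60 in iv saline, 46 to 64 at iv 400, 51 to 59 in ip saline and 43 to 104 at ip 400. Of the intestinal genes Cdx2 and Fabp2 were under the table's median in all arrays. Of 5 named mesothelial genes, Upk3b and Bnc1 were under the median in every array, Gpm6a fell (-1.19 and -1.51) and Wt1 did not pass. Their sum without Krt7 was 583 to 997 in iv saline and 251 to 545 at iv 400. It was 1344 to 1742 in ip saline and 455 to 761 at ip 400. Gpm6a made up most of this sum, so the fall is mainly that of 1 gene. Gpm6a averaged 9.49 (iv) and 10.56 (ip) in saline (log2 intensity), against 4.25 and 5.31 for Wt1. Of 2 named pancreatic genes Cela1 fell by both routes (-1.57 and -2.38), and Prss2 fell at iv 400 (-0.62) and did not pass at ip 400 (-0.49). The part of other tissue in the results was not tested further.

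The genes most like each of the 4 were those with the highest Pearson correlation of log2 values over the 48 arrays, which share the dose groups and are given as a description. For Krt8 they were Tpm1 (0.983) and Tpm4 (0.977), both tropomyosins of actin filaments, then Rell1, Cenpt and Trim47. For Krt19 they were Fcgr1 (0.958), an Fc receptor of macrophages, S100a6 (0.956), Fxyd5, Ankrd1 and Hk2. For Krt20 they were Cd14 (0.984), a co-receptor for lipopolysaccharide, Il1f6 (0.982), which encodes interleukin-36 alpha, Slc34a2 (0.980), Birc3 (0.976) and Lrg1 (0.975). For Cldn4 they were the chemokine Ccl9 (0.970), Birc3 (0.970), Agt (0.966), Ncf4 (0.964) and Il1f6 (0.963). Among the 4 genes themselves the correlation ran from 0.859 (Krt8 with Krt19) to 0.956 (Krt20 with Cldn4). At ip 400 the log2 difference was 5.78 for Cd14, 7.22 for Il1f6 and 6.41 for Slc34a2, set beside 6.63 for Krt20. These genes were picked by their correlation with Krt20 over arrays that include ip 400. A rise there therefore follows largely from the choice and is no separate result. Il1f6 averaged 2.27 (log2 intensity) in ip saline, under the table's median, so the size of its difference is approximate, as for Krt20.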

How the data were processed

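Total RNA of kidney from 48 mice was labelled with biotin and hybridised, 1 mouse per array, per the labels' protocols. The deposited table holds GCRMA intensity values on a linear scale, as the submitters' processing notes state, from 1.78 to 63594. The sources used here give neither its version nor the arrays normalized as 1 set. Log2 was taken with no offset. The platform annotation gave 1 symbol to 34958 probe sets, several to 932 and none to 9211. Names were given by row position in 3 stretches (rows 751 to 3250, offset 64; 5001 to 11750, offset -47; 34251 to 36000, offset -16168), and the named row of highest mean stood for a gene. Array medians were 3.34 to 3.55 (log2) by the iv and 3.47 to 3.68 by the ip route.

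The 5745 genes whose log2 value exceeded the median of the table (3.47) in 6 or more arrays were fitted over all 8 groups with limma 3.58.1 in R 4.3.3 (two-sided moderated test from eBayes with trend, 40 residual degrees of freedom, Benjamini-Hochberg, threshold 0.05), which was tested on simulated data. Intervals are 95% intervals of the fit. Correlations used scipy 1.17.1. The members, lists and tests were chosen with earlier results of these data known. Genes named from a list are up to 3 of the largest risers and fallers that passed at either 400 mg/kg comparison, members that did not pass, and the 5 genes most like each member.

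Alternatives were array centring, quantile normalization, array weights, no filter, a floor, all rows of the table, only the compared groups, exact permutation, identifiers as listed, each mouse left out, and, chosen after the data were seen, 4 iv arrays left out and another Krt8 row.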

Additional observations from a re-analysis of the deposited data

Results flagged for a closer look

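In 6 of the 32 sets of 6 values (4 genes in 8 groups) 1 mouse lay far from the others, with the gap to its nearest neighbour divided by the whole range above Dixon's critical ratio for 6 samples. Chance marks about 1 in 20 such sets. For Krt8, mouse 1 of iv saline was low at 8.78 (log2 intensity; ratio 0.751) and mouse 9 of iv 50 was low at 8.87 (ratio 0.63). The arrays of both mice had the highest median of their group (3.47 and 3.50). Krt19 was high in mouse 62 of ip saline at 5.31 (ratio 0.968). Krt20 was high in mouse 68 of ip 50 at 3.22 (ratio 0.858), still under the table's median. Cldn4 was high in mouse 72 of ip 50 at 5.62 (ratio 0.873) and in mouse 90 of ip 200 at 5.65 (ratio 0.855).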

How the results depend on the processing

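The rises of the 4 genes at 400 mg/kg kept their direction and their call in every alternative run except that with identifiers as listed (20 to 22 each). Their log2 differences then ranged from 1.80 to 2.07 (iv) and 2.10 to 2.33 (ip) for Krt8, 3.84 to 4.31 and 4.91 to 5.64 for Krt19, 5.68 to 6.61 and 5.93 to 6.97 for Krt20, and 3.23 to 3.53 and 4.40 to 4.82 for Cldn4. For Krt8 these runs include the row just outside the named stretches, whose name is assumed. Sizes that start from values under the table's median, as those of Krt20 do, are limited by signal over background. Depth has no counterpart on arrays. No paired analysis was possible because the groups share no mouse number.

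The iv 200 results depended on the setting, and the cause was not tested. Against iv saline, Krt8 (0.63) lost its call with only the compared groups fitted (adjusted p = 0.22), in an exact permutation test (p = 0.058, unadjusted) and without the 4 iv arrays of highest median (0.30). Krt20 (2.48) lost it with only the compared groups (adjusted p = 0.073), and Krt19 gained it with array weights (1.16, adjusted p = 0.026). With 1 mouse left out, Krt8 ranged from 0.46 to 0.78, Krt19 from 0.93 to 1.48 and Cldn4 from 0.43 to 1.05. Krt8 at ip 50 (0.29) passed an exact permutation test (p = 0.011, unadjusted). Krt19 between iv 50 and iv 200 (1.29) gained its call with array weights (1.21) and in an exact permutation test (p = 0.028, unadjusted).

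Differences near 0 changed sign. Krt20 at iv 50 was 0.021 with array weights, 0.032 without the 4 iv arrays, 0 with low values set to the table's median (0 too at ip 200) and -0.11 to 0.043 with 1 mouse left out. Leaving out 1 mouse gave -0.28 to 0.053 for Krt19 at iv 50, -0.35 to 0.24 for Krt19 and -0.033 to 0.071 for Krt20 at ip 50. Cldn4 at ip 200 against ip 50 ran from -0.081 to 0.087, and was -0.0041 with array weights. Between the saline groups quantile normalization gave -0.30 for Krt8.

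With identifiers as listed, another row stands under each name. Krt8 then differed by 0.047 (iv 50), -0.17 (iv 200), -0.73 (iv 400) and -1.0 (ip 400) from saline, by -0.22, -0.56 and -1.11 between neighbouring doses (iv 200 to 50, iv 400 to 200, ip 400 to 200), and by 0.28 and -0.27 between the routes' effects at 200 and 400. Krt19 gave -0.41, -1.46, 0.050 and -2.01 (iv 200, iv 400, ip 200, ip 400), then -0.39, -1.05, 0.051 and -2.06 between neighbouring doses (iv, then ip), 0.13 between saline groups, and 0.46 and -0.56 between routes. Krt20 gave 0.070, -0.022, -0.0039, 0.026 and 0.11 (iv 50, 200 and 400, ip 200 and 400), -0.091 from iv 50 to iv 200, 0.018 from iv 200 to 400, 0.087 from ip 200 to 400, 1.31 between saline groups and 0.048 between routes at 200. Cldn4 gave 0.051, -0.014, -0.090, -0.0044 and -0.32 (iv 50, iv 400, ip 50, ip 200, ip 400), -0.0087, -0.055 and -0.31 between neighbouring doses, 0.42 between saline groups and -0.30 between routes at 400.

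Counts over all tested genes moved too. At iv 200, 349 genes were higher and 74 lower than in saline, against 44 and 33 with only these groups fitted, 794 and 605 with array weights, 188 and 62 without the 4 iv arrays, and 297 and 149 under quantile normalization. Between iv 50 and iv 200 they were 363 and 32, against 68 and 4, 569 and 247, 208 and 17, and 297 and 72 in that order. At iv 50 they were 2 and 29, against 27 and 63 with array weights. At ip 50 and ip 200 they were 3 and 2 each, against 8 and 5 and 11 and 7 with array weights. Between the saline groups they were 3168 higher and 147 lower in ip, against 1913 and 236 with arrays centred and 622 and 728 under quantile normalization; the median shift of 0.41 was then 0.25 and -0.041. For the route difference at 200 they were 18 and 38, against 329 and 385 with array weights, 29 and 13 with only these groups, and 17 and 7 without the 4 iv arrays. At 400 they were 166 and 77, against 429 and 212, 60 and 14, and 100 and 110 under quantile normalization. At ip 400 the split was 2084 higher and 1440 lower, against 1749 and 1674 with arrays centred, 1812 and 1826 under quantile normalization, and 2214 and 2605 with no filter.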
